A study of Mus musculus with 2 samples.

Results

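The genes described here are 10 markers by which hematopoietic stem cells and multipotent progenitors of mouse bone marrow are told from each other and from other cells. Kit and Ly6a encode c-kit and Sca-1, the surface proteins of the LSK gate (lineage-negative, Sca-1-positive, c-kit-positive cells). Slamf1, Procr, Tek, Fgd5 and Hlf were taken as markers of long-term stem cells, and Cd48, Cd34 and Flt3 as markers of multipotent progenitors. The genes were chosen by symbol, and every non-control probe whose transcript identifier maps to one of these symbols was kept. This gave 13 probes on 14 spots, and a probe for 10 of 10 genes, out of 21360 genes that could be named on the arrays.

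Gene expression was measured in LSK cells of C57BL/6J mice on 1-colour Agilent arrays. One group was nondiabetic and the other was made diabetic with streptozotocin (STZ), a toxin of pancreatic beta cells, and each group has 1 array. By the labels an array stands for 3 mice, with no value for the single mouse, and for 8.3 ng of their total RNA, which was amplified before labelling with Cy3. The study's methods give a tail vein as the route for STZ and citrate buffer as the control treatment. The mice are female by the labels of both arrays, whereas the study's text describes male mice, and the age of these mice and the time since injection are not given in the sources used here. The arrays shared 1 slide and 1 scan. Each carried 59305 spots that were not controls, with a median intensity of 29.8 on the nondiabetic and 32.2 on the diabetic array, and by the flag of the scanner software 62.7% and 63.9% of these spots were well above background. With 1 array per condition, no difference has a replicate check or a test, and the number of arrays limits the precision of every value.

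Surface phenotype orders the early steps of blood formation. Long-term stem cells carry CD150, the product of Slamf1, and lack CD48, while progenitors downstream gain CD48 and, on their lymphoid side, Flt3. In adult mice the most primitive LSK cells carry little CD34 on their surface, and the endothelial protein C receptor (Procr), the angiopoietin receptor Tie2 (Tek), the exchange factor Fgd5 and the transcription factor Hlf mark stem cells within the gate. These markers are known mostly as proteins or reporter alleles, whereas the arrays measured their transcripts in the bulk of all sorted cells, where fewer cells of a type and less RNA per cell cannot be told apart.

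Of the 10 marker genes, 9 were well above background on both arrays by 12 probes, and Slamf1 was well above background in diabetic mice only. Intensities are given in arbitrary units before scaling. Log2 ratios are of diabetic over nondiabetic mice, after each array was scaled to its 75th percentile over non-control spots (168.2 and 182.5), so that an equal intensity on both arrays gives a ratio slightly below 0. Where a probe was well above background on 1 array only, the ratio is a bound, taken against the lowest intensity well above background on the other array or against the dim spot itself where that is brighter. A gene with several probes is counted by its brightest probe. In all, 1 of the 10 genes was at least 2-fold higher in diabetic mice, against 11.0% of the 15192 named genes with a ratio or bound, and 0 were at least 2-fold lower, against 10.1%. The gene past 2-fold was Slamf1, by a bound. The median log2 ratio was 0.22 over the 5 long-term stem cell markers and 0.19 over the 3 multipotent progenitor markers, with 0.02 over all genes. Without Slamf1, whose value is a bound, the median of the long-term stem cell markers was -0.19. A share of 1 in 10 is near that of all genes.

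**Figure D1:**
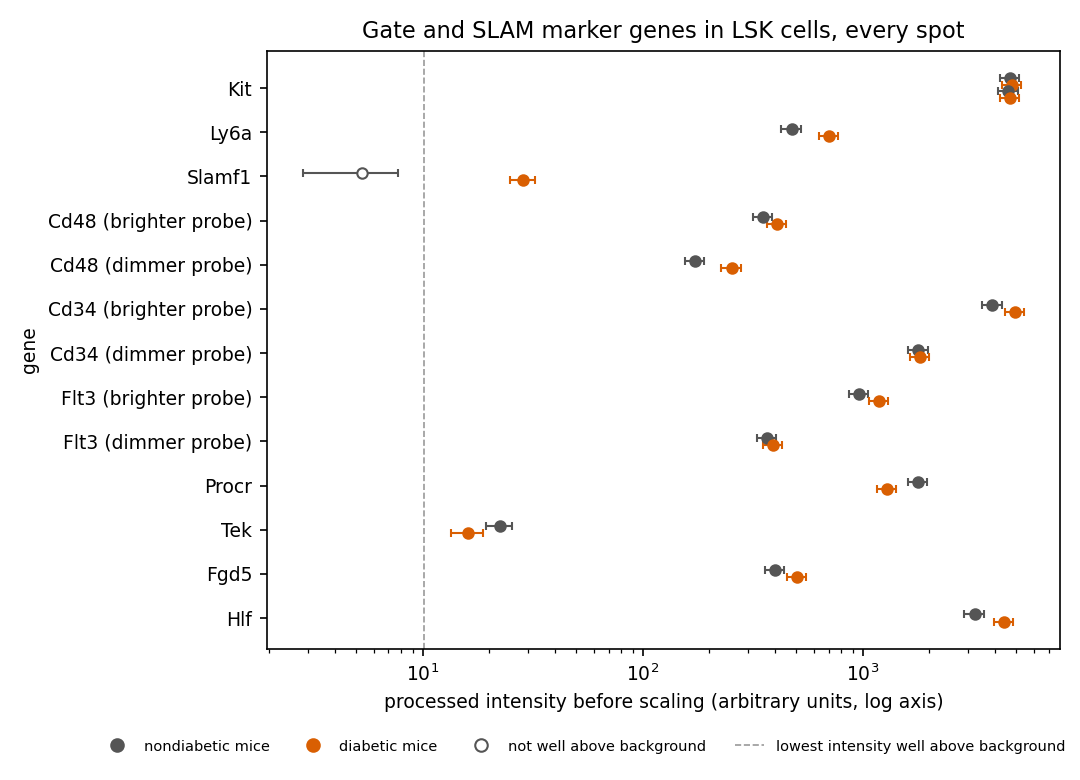
Processed intensity (arbitrary units, log axis) of every spot of the 10 marker genes on the array of nondiabetic mice (grey) and of diabetic mice (orange), with the error that the scanner software gives for each spot as a bar and an open circle where the spot was not well above background. The dashed line marks the lowest intensity well above background, 10.2; Slamf1 in nondiabetic mice, at 5.29, is the only spot left of it, and intensities of different probes are not to be compared with each other.

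The errors known for these values are those of the spots. The scanner software gives each spot an error, from which the error of a log2 ratio was 0.20 to 0.21 for every marker spot except those of Tek (0.31) and Slamf1 (0.69). Among 237 detected probes with 5 or more spots, the log2 ratio had a median SD of 0.13 between the spots of a probe. The probes well above background on both arrays were split by signal into 3 groups of equal size. The median SD between spots was 0.25 in the dimmest group, 0.13 in the middle and 0.07 in the brightest group. Neither error holds the difference between mice, sorts or amplifications. By the same signal limits, 5469 genes with a ratio or bound fell in the dimmest, 4502 in the middle and 5221 in the brightest. The share of these genes past 2-fold in either direction was 30.3% in the dimmest, 25.1% in the middle and 8.01% in the brightest group.

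Of the gate genes, Kit, the receptor for stem cell factor, had nearly the same intensity on both arrays. Its probe (A_66_P128434) was printed on 2 spots, with 4673 and 4598 in nondiabetic mice and 4790 and 4681 in diabetic mice. The log2 ratio was -0.09, with an SD of 0.007 between the spots, and 88.4% of all genes lay further from 0. Ly6a, which encodes a small protein anchored to the membrane by a lipid, had 475.2 in nondiabetic and 700.9 in diabetic mice on its 1 probe (A_51_P265495). This is 1.36-fold higher after scaling, a log2 ratio of 0.44 that is 2.17 times the error of its spots, and 49.8% of all genes lay further from 0. Both genes of the gate were well above background on both arrays, as the label of LSK cells has it, and their median log2 ratio was 0.18. The sort was made on the proteins, and a transcript level within the gate is not a surface level.

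Slamf1 and Cd48 belong to the SLAM family, immune cell receptors that mostly bind one another or their own kind. The spot of Slamf1 (A_52_P550173) had an intensity of 5.29 in nondiabetic mice, not well above background, and 28.7 in diabetic mice, well above it. Before background subtraction the spot read 46.0 over a local background of 33.0 in nondiabetic and 67.5 over 30.0 in diabetic mice. Of 308 negative control spots, 3 in nondiabetic and 0 in diabetic mice were as bright as the Slamf1 spot there. The brightest of these controls had 466.0 in nondiabetic and 6.84 in diabetic mice. In nondiabetic mice 1 control was thus also as bright as Tek, Fgd5, both probes of Cd48 and the dimmer probe of Flt3. By the bound, taken against the lowest intensity of 10.2, Slamf1 was at least 2.59-fold higher in diabetic mice. In the dimmest group, to which the probe belongs, 20.4% of genes lay further from 0 than this bound. The value fell under 2-fold with normexp, another background correction that adds an offset of 50 to each intensity, where the log2 ratio was 0.31.

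Cd48, a lipid-anchored receptor that appears as stem cells become progenitors, was measured by 2 probes on the same transcript. The brighter probe (A_55_P2132549) had 353.4 in nondiabetic and 408.2 in diabetic mice, for a log2 ratio of 0.09. The dimmer probe (A_55_P2185605) had 172.9 and 253.7, a log2 ratio of 0.44 and 2.12 times its error. The probes thus differed by 0.35 in their log2 ratios, both on the side of diabetic mice. Over 3245 genes with at least 2 probes measured on both arrays, the median of this gap was 0.56, and 35.1% of them had a smaller gap than Cd48.

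In the mouse genome the genes of this family lie side by side. Among genes listed as protein-coding, Slamf7, Cd48, Slamf1, Cd84 and Slamf6 follow each other with 1 further gene, Tma7-ps, between Cd48 and Slamf1. Ly9 lies next to Slamf7. Of 12 genes of the family and its adaptors, 6 had a ratio or bound, with 1 (Slamf1) at least 2-fold higher and 0 lower (11.0% and 10.1% over all genes) and a median log2 ratio of -0.23. Ly9 was lowest among those measured on both arrays, with 186.6 in nondiabetic and 109.6 in diabetic mice and a log2 ratio of -0.89, while its dimmer probe gave -0.21. Cd244a, the receptor that binds CD48, was close to 0 at 0.15, with intensities of 1408 and 1696. Cd84, the neighbour of Slamf1, had a log2 ratio of -0.55 by its brightest probe and -1.84 by the other. Slamf7 was well above background in nondiabetic mice only, at least 1.72-fold lower in diabetic mice. Slamf6, Slamf8, Slamf9 and the adaptor genes Sh2d1a, Sh2d1b1 and Sh2d1b2 were well above background on neither array. Besides Slamf1, 2 of the genes with a ratio lay slightly above 0 and 3 below it. Under normexp Slamf7 lay at -0.11, and averaged over its probes Cd84 was past 2-fold at -1.20.

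The other markers of multipotent progenitors were near the median of all genes. Cd34, a sialomucin of progenitors and of vessels, had 3888 in nondiabetic and 4902 in diabetic mice on its brighter probe (A_51_P204740), a log2 ratio of 0.22. On its dimmer probe (A_55_P2009225) it had 1793 and 1824, a log2 ratio of -0.09. Flt3, the receptor tyrosine kinase of lymphoid-primed progenitors, had 959.2 and 1184 on its brighter probe (A_66_P116412), a log2 ratio of 0.19, and 367.3 and 390.9 on its dimmer probe (A_55_P2055242), a log2 ratio of -0.03. For both genes the brighter probe lay above 0 and the dimmer slightly below it, with gaps of 0.31 and 0.21. Of all genes with at least 2 probes, 32.3% had a smaller gap than Cd34 and 24.6% a smaller gap than Flt3. The brighter probe of Cd34 differed from 0 by 1.06 times its error, and the other 3 probes by less than their error. Averaged over probes, the log2 ratios were 0.26 for Cd48, 0.06 for Cd34 and 0.08 for Flt3.

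The 4 other long-term stem cell markers fell on both sides of 0. Procr, the receptor for protein C on stem cells and endothelium, had 1788 in nondiabetic and 1290 in diabetic mice (A_51_P382152). Its log2 ratio after scaling was -0.59, which is 2.89 times the error of its spots. In the brightest group 24.7% of genes lay further from 0, and over all genes 39.7%. Tek, the receptor for angiopoietins, had 22.4 in nondiabetic and 16.1 in diabetic mice (A_55_P2262136), which was well above background on both arrays but close to the lowest such intensity. Its log2 ratio of -0.60 was 1.92 times its error, and 49.4% of genes in the dimmest group lay further from 0. Both genes were at least 1.5-fold lower, as were 19.0% of all genes, but close to this limit. Procr was under it at -0.58 with normexp and at -0.57 with the median log2 ratio of detected probes set to 0, and Tek at -0.17 with normexp, -0.52 with loess and -0.57 with the median set to 0.

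Fgd5, an exchange factor for the GTPase Cdc42, and Hlf, a transcription factor of the PAR bZIP family, were brighter on the array of diabetic mice. Fgd5 (A_55_P2064572) had 400.2 and 504.4, a log2 ratio of 0.22, or 1.06 times its error. Hlf (A_55_P2009752) had 3223 in nondiabetic and 4374 in diabetic mice, which is 1.25-fold higher after scaling. Its log2 ratio of 0.32 was 1.59 times its error, and 60.2% of all genes lay further from 0. Stem cell markers measured well on both arrays thus ran from -0.60 for Tek to 0.32 for Hlf, a range that takes in 5 of the 6 probes of the progenitor markers, with the dimmer one of Cd48 above it.

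**Figure D2:**
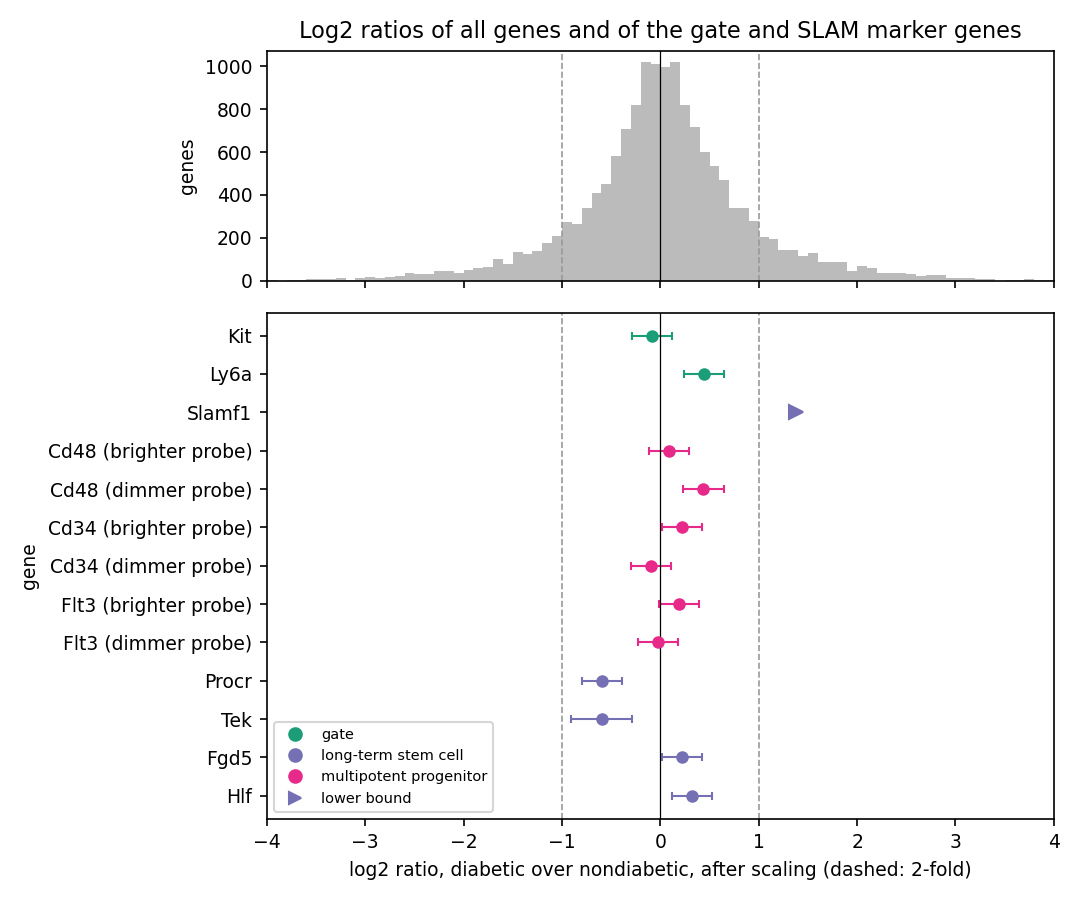
Above, the number of genes by log2 ratio (diabetic over nondiabetic mice, after scaling) over 15192 named genes, of which those beyond 4 on either side are not drawn; below, the log2 ratio of each probe of the 10 marker genes, with the error given by the scanner software as a bar and an arrowhead for the bound of Slamf1. Only Slamf1 lies past the dashed lines at 2-fold, and Procr (-0.59) and Tek (-0.60) lie furthest to the left.

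The ligands and partners of these receptors were measured in the same cells. Of 11 such genes, 11 were well above background on both arrays, with 0 at least 2-fold higher and 3 lower (11.0% and 10.1% over all genes) and a median log2 ratio of -0.24. Angpt2, a ligand of Tie2 that can block it, had 58.0 in nondiabetic and 18.6 in diabetic mice, for a log2 ratio of -1.76. Thbd encodes thrombomodulin, which works with the protein C receptor, and had 92.6 and 38.2, a log2 ratio of -1.40. Flt3l, the ligand of Flt3, had 772.4 and 418.8, which is 2.0-fold lower after scaling. The highest value was that of F2r, a thrombin receptor that activated protein C can cleave, with 239.7 and 391.8 and a log2 ratio of 0.59. Angpt1, the activating ligand of Tie2, lay at 0.12 with 3688 and 4335, and Kitl, which encodes stem cell factor, at -0.60 with 23.3 and 16.7. Normexp took Angpt2 to -0.67, Thbd to -0.71 and Flt3l to -0.80, on the same side of 0 and under 2-fold. Flt3l was also under this limit, at -0.98, with the median log2 ratio of detected probes set to 0.

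Among genes listed as protein-coding, Ly6a lies between Ly6i and Ly6c1 in a cluster of like genes. Of 8 such neighbours, 6 had a named probe and 5 a ratio, with 1 at least 2-fold higher and 0 lower (11.0% and 10.1% over all genes) and a median of 0.22. Ly6i had 30.9 in nondiabetic and 108.6 in diabetic mice, for a log2 ratio of 1.70, and Ly6d had the lowest value, -0.33. Ly6k was well above background on neither array, and Ly6c2 and Ly6g had no named probe. Ly6c1, on the other side of Ly6a, lay at 0.22. Among 8 relatives of Hlf and Fgd5, 7 had a ratio, with the same counts of 1 and 0 and a median of -0.02. Fgd1 had 17.5 and 40.8, a log2 ratio of 1.11, and Fgd4 had the lowest value by its brightest probe, -0.32, with -0.65 and 0.66 on its other probes. Under normexp the log2 ratio was 0.84 for Ly6i and 0.27 for Fgd1.

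Of 20 further stem cell genes, 2 were past 2-fold on the side of diabetic mice and 3 on the other side, with 15 below this limit, beside shares of 11.0% and 10.1% of all genes, and the median log2 ratio was 0.15. Hoxb5, a homeobox gene used as a reporter of long-term stem cells, had 11.6 in nondiabetic and 127.8 in diabetic mice. Its log2 ratio was 3.35, on 1 spot near the lowest intensity well above background in nondiabetic mice, and it was 1.45 under normexp. Mllt3, a chromatin reader that sustains stem cells, had 53.6 and 160.6, a log2 ratio of 1.47. Mecom, a zinc finger factor that stem cells need, had 182.5 and 86.1, a log2 ratio of -1.20, and -0.16 on its other probe. Neo1, a receptor of netrins, had 36.6 and 17.5, a log2 ratio of -1.18. Cdkn1c, an inhibitor of the cell cycle in resting stem cells, was well above background in nondiabetic mice only, at 21.7, and at least 2.34-fold lower in diabetic mice. Under normexp the ratios of Mllt3 (0.98), Mecom (-0.80), Neo1 (-0.34) and Cdkn1c (-0.40) were under 2-fold. Averaged over its probes Mecom was under it too, at -0.68.

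Among 12 further genes of multipotent and lymphoid-primed progenitors, 1 was at least 2-fold higher and 1 lower (11.0% and 10.1% over all genes), and the median log2 ratio was 0.23. Il7r, the receptor for interleukin 7 on lymphoid progenitors, had 43.6 in nondiabetic and 98.8 in diabetic mice, for a log2 ratio of 1.06 that was 0.57 under normexp. Cebpa, a factor that drives the granulocyte and monocyte lineages, had 654.5 and 301.0, a log2 ratio of -1.24. Csf3r, the receptor for G-CSF, with the brightest probe of the list, lay at 0.10.

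The gate removes cells with markers of mature lineages, and 5 genes of such markers were read as a check of the label. Of these, 4 had a named probe and 3 were well above background on both arrays, with 0 past 2-fold by the brightest probe (11.0% higher and 10.1% lower over all genes). Cd3e of T cells had 237.8 in nondiabetic and 198.2 in diabetic mice, a ratio of -0.38 on the log2 scale. The 3 probes of Itgam, which encodes CD11b of granulocytes and monocytes, disagreed, and 2 of them were past 2-fold. The brightest had 34686 and 35189, a log2 ratio of -0.10, while the next had 283.8 and 141.7, a log2 ratio of -1.12, and the dimmest 111.4 and 49.2, a log2 ratio of -1.30. Summed over the list by brightest probe, the intensity before scaling was 34938 in nondiabetic and 35410 in diabetic mice. This sum follows the brightest probe of Itgam, and the log2 ratio of the sums after scaling was -0.10, as for that probe. Transcripts of Cd3e and Itgam were thus measured in cells sorted as negative for the lineage panel, on both arrays.

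Several of the markers are shared with cells outside blood formation. Tek, Procr, Cd34, Ly6a and Fgd5 are also expressed by endothelium. Of 10 endothelial genes, 8 had a ratio or bound, with 1 at least 2-fold higher and 1 lower (11.0% and 10.1% over all genes), a median of -0.16 and summed intensities of 2606 in nondiabetic and 3225 in diabetic mice. Without Pecam1 the sums were 2444 and 2289. Pecam1, which blood cells express too, had 162.2 and 935.7, a log2 ratio of 2.41 with an SD of 0.13 between 2 spots. Emcn had 111.4 and 49.2, a log2 ratio of -1.30 that was -0.78 under normexp, and Egfl7, with the brightest probe, lay at -0.25. Cdh5, which encodes VE-cadherin, and Flt1 were well above background on neither array, with 2.52 and 2.47 for Cdh5 and 2.12 and 2.09 for Flt1.

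Kit is also a marker of mast cells, and Ly6a of marrow stroma, while the sort kept only lineage-negative cells that carried both c-kit and Sca-1. Of 8 genes of mast cells and basophils, 5 had a ratio or bound, with 0 at least 2-fold higher and 2 lower (11.0% and 10.1% over all genes), a median of -0.50 and sums of 1337 in nondiabetic and 1335 in diabetic mice. Without Gata2, which is also on the stem cell list, the sums were 610.3 and 384.3. Cpa3, a protease of mast cells and their progenitors, had 144.6 and 26.9, which is 5.84-fold lower after scaling. Fcer1a, a chain of the IgE receptor, had 31.5 in nondiabetic mice and was at least 3.39-fold lower in diabetic mice, where it was not well above background. Under normexp Cpa3 stayed past 2-fold, at -1.33, and Fcer1a did not, at -0.55. Hdc had the highest log2 ratio, 0.45, and Gata2, with the brightest probe, had 0.27. Ms4a2, Mcpt8 and Cma1 were well above background on neither array. Kit lay at -0.09 on the same arrays. Of 8 stromal genes, 4 had a ratio or bound and 0 passed 2-fold, with a median of -0.37 and sums of 560.2 and 729.4. Runx2, with the brightest probe, had 273.1 and 479.1 and the highest log2 ratio, 0.69, while its other probe well above background gave -1.28. The 3 other genes with a ratio or bound lay below 0, and Kitl had the lowest of those measured on both arrays. The higher stromal sum in diabetic mice thus followed the brightest probe of Runx2. Pdgfra, Col1a1 and Col3a1 were well above background on neither array. What part endothelial, mast or stromal cells have in the values of the 10 markers was not tested.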

How the data were processed

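The authors deposited, for each of the 2 arrays, scanner output with processed intensities, which Agilent Feature Extraction 11.5.1.1 had background-subtracted array by array without normalizing the arrays to each other, on a grid of build mm9. They also deposited a table of processed intensities, in which each column was the scanner's intensity times 1 constant (log2 factors of 3.48 for nondiabetic and 3.35 for diabetic mice, column medians of 332 and 329). The array normalization behind that table is not given in the sources used here.

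The 314 spots that either array marked as outliers were dropped from both. Log2 intensities minus the 75th percentile were averaged per probe. A probe was well above background if most of its spots carried that mark, and no bound was given where it would turn the direction. Transcript identifiers were matched, without versions, to RefSeq genes of assembly GRCm38.p6, which named 31845 of 59305 spots (53.7%), and gene order was taken from the same table. The order was that of start positions among genes listed as protein-coding, and coordinates were used for nothing else. Summed intensities of a list are before scaling and over the genes well above background on the array in question. Since intensities of different probes are not to be compared, a sum follows its brightest probes and gives no share of a gene or cell type.

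No test was made. The members and lists were chosen with earlier results of these data known. Named were all 10 members with every probe and, from each other list, the genes with the highest and lowest ratio, the gene with the brightest probe of a cell type list and every gene past 2-fold. Cd244a, Cd84, Slamf7, Angpt1, Kitl in the list of ligands, Ly6c1, the genes without a probe and the dim genes of each list were named after their values were seen. Some genes that this rule takes in are not reported here. The alternatives were normexp with an offset of 50, quantile normalization, the 75th percentile over detected probes, median centring, loess, the dim probes all kept or all dropped, the mean over probes, the authors' table, and a 1.5-fold limit. The steps were tested on simulated data, in Python 3.11.15 (numpy 2.4.6, pandas 2.3.3) and R 4.3.3 (limma 3.58.1).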

Additional observations from a re-analysis of the deposited data

How the results depend on the processing

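Over the 9 alternatives that give a ratio, 89 values of single marker genes were compared with the main ones. Of these, 83 moved by less than the median spot SD of their signal group, and 0 changed sign. Kit stayed between -0.13 and -0.07, Ly6a between 0.40 and 0.49, Procr between -0.63 and -0.57, Fgd5 between 0.18 and 0.24 and Hlf between 0.28 and 0.35. Of the other 6 values, normexp took Slamf1 to 0.31 and Tek to -0.17, no filter on dim probes took Slamf1 to 2.32, and the mean over probes gave Cd48, Cd34 and Flt3 the values 0.26, 0.06 and 0.08.

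The number of marker genes at least 2-fold higher went from 1 to 0 under normexp and when a ratio needed detection on each array, which leaves out Slamf1. In that setting the median of the long-term stem cell markers went from 0.22 to -0.19. At a limit of 1.5-fold, 2 marker genes were lower, Procr and Tek. Over all genes, 1667 were higher and 1538 lower by at least 2-fold. These counts were 597 and 497 under normexp and 3176 and 2887 at 1.5-fold. Normexp changes the background model, adds the offset and starts from another signal, and which of these moved the counts was not tested. The median of the multipotent progenitor markers stayed between 0.08 and 0.21. Medians of other lists moved more. They ran from -0.27 to -0.02 for the SLAM family, -0.54 to -0.12 for mast cells and -0.58 to -0.10 for granulocytes and monocytes. The range was 0.25 to 0.76 for erythroid genes, 0.265 to 0.57 for B cells and 0.06 to 0.26 for the Ly6 neighbours. For the relatives of Hlf and Fgd5 it crossed 0, from -0.07 to 0.02.

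For 54 other genes of the lists, 425 of 480 values moved by less than the median spot SD of their signal group. Of the 24 past 2-fold, 6 were past it under normexp (Hoxb5, Pecam1, Slc4a1, Cpa3, Hba-a1 and Cebpa) and 18 were not, all on the same side of 0 as before. Flt3l, Hbb-b1 and Mecom also fell under 2-fold in another setting. Averaging over probes took Runx2 to -0.29, Nkg7 to 0.20 and Cd4 to 0.13, each across 0, and normexp took Ly6e from -0.10 to 0.05.

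No paired analysis was possible because there is a single array per condition and nothing was tested. Leaving out a replicate and fitting the slide as a block were not possible either. Normexp was run on the median spot signal, and the mean spot signal was not used. Slamf1 and Tek are the only markers in the dimmest group by signal, and 6 of the 12 genes of the SLAM family have no ratio.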

Other observations

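The lists of mature blood lineages are given here beside the shares of all genes past 2-fold, 11.0% on the higher and 10.1% on the lower side. Of 8 erythroid genes, 7 had a ratio, with 3 at least 2-fold higher in diabetic mice, 0 lower, a median log2 ratio of 0.36 and summed intensities of 2721 in nondiabetic and 6353 in diabetic mice. Hba-a1, a globin gene with the brightest probe, had 1984 and 4967, a log2 ratio of 1.21. Slc4a1, which encodes the anion exchanger of red cells, had 123.7 and 528.9, a log2 ratio of 1.98. Hbb-b1 had 102.2 and 224.9, a log2 ratio of 1.02. It was under 2-fold at 0.74 with normexp and at 0.98 with the 75th percentile over detected probes. Klf1 had the lowest value, -0.30. Of 8 B cell genes, 6 had a ratio or bound, with 2 at least 2-fold higher, 0 lower, a median of 0.55 and sums of 740.0 and 1139. Igll1, a part of the pre-B cell receptor, was at least 3.39-fold higher in diabetic mice, where it had 37.5, and Cd79a had 39.3 and 121.3, a log2 ratio of 1.51. Under normexp both were under 2-fold, with log2 ratios of 0.49 and 0.77. Vpreb1, with the brightest probe, lay at 0.48 and Cd79b at -0.39, while Ms4a1 and Ebf1 were well above background on neither array.

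Of 8 T and NK cell genes, 6 had a ratio or bound, with 0 at least 2-fold higher, 2 lower, a median of -0.42 and sums of 4931 in nondiabetic and 4197 in diabetic mice. Cd3d and Cd3g had 25.4 each in nondiabetic mice and were each at least 2.74-fold lower in diabetic mice, where they were not well above background. Under normexp the log2 ratio was -0.03 for Cd3d and -0.55 for Cd3g. Nkg7, with the brightest probe, had -0.47 on it and 0.87 on its other probe, and Cd4 was highest at -0.05, with 0.30 on its other probe. Of 12 granulocyte and monocyte genes, 10 had a ratio or bound, with 0 at least 2-fold higher, 1 lower and a median of -0.22. Their sums, 41820 and 41527, mostly follow the brightest probe of Itgam. S100a8 had 52.2 and 20.4, a log2 ratio of -1.48 that was -0.54 under normexp, and Camp was highest at 0.56. Of 10 housekeeping genes, 0 passed 2-fold and the median was 0.20. Those measured on both arrays ran from -0.54 for Sdha to 0.95 for Hprt, whose SD was 0.05 over 9 spots, and Ywhaz, with the brightest probe, lay at 0.35. The part of any of these cell types in the values of the stem cell markers was not tested.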
